A study of Mus musculus with 15 samples.

Results

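In the developing mouse stomach, 100 genes were picked whose RNA around weaning, at postnatal weeks 2 and 3 (W2 and W3), stood above that of the weeks on either side. Whole stomachs of C57BL/6 mice gave 1 transcriptome at each of 15 ages. Embryonic ages ran daily from E12.5 to E18.5. They were followed by D1, D3, D5 and W1 in the first postnatal week, by W2 and W3, and by W6 and W8 in maturing animals. No genotype or treatment distinguishes the timepoints. According to the study's description of its animals, males alone were used after W2 and both sexes without distinction up to then, so sex and age cannot be told apart between W2 and W3. It also says that a replicate combined the stomachs of several embryos up to E17.5, with more embryos up to E14.5, and came from a single mouse at later ages, without naming the RNA samples separately. The 100 members were selected on measured values of these same transcriptomes. For each gene, log2(FPKM + 1) was averaged over W2 and W3, and the larger of the mean over D3, D5 and W1 and the mean over W6 and W8 was subtracted (the larger flank). FPKM counts fragments per length of transcript and per total of mapped fragments. Of 44788 gene symbols, 12440 reached an FPKM of 5 at some timepoint, and the 100 highest scores among these were kept. The heights at W2 and W3 are therefore a description of the choice and were not tested. Without a replicate at any timepoint, a single height also cannot be set against the spread between animals.

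Weaning is the change from milk to solid food, and the mice were weaned around W3. The mouse stomach has a glandular part, which makes acid, pepsinogen and mucus, and a forestomach, which is lined like the skin by a stratified squamous epithelium. Squamous cells build keratin filaments and, as they flatten, a cornified envelope of small crosslinked proteins such as the small proline-rich proteins (SPRR) and the late cornified envelope proteins (LCE). Immune cells, peptide-releasing neurons and endocrine cells, smooth muscle and fat lie beneath or among the epithelia. In whole stomachs, a lower level can mean fewer cells of a type or less RNA per cell, and these cannot be told apart here.

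The most compact set within the 100 genes was a stretch of chromosome 3. There, 8 members lay between positions 92285254 and 92958574 (GRCm38), namely Sprr2a3, Sprr2b, Sprr2d, Sprr2i, Sprr2k, Lce1j, Lce3d and 2310050C09Rik. The bases before the start of 4 of the Sprr2 genes are shown because these promoters share motifs at nearly the same place. They are RefSeq sequences of build GRCm38.p6, each the 200 bases before the start, 5′ to 3′ on the plus strand. Capitals mark the AP-1 site TGANTCA, the octamer ATTTGCAT and the TATA box TATAAA, each searched on both strands. None of these overlap in the windows printed.
Sprr2b, chr3:92316505-92316704: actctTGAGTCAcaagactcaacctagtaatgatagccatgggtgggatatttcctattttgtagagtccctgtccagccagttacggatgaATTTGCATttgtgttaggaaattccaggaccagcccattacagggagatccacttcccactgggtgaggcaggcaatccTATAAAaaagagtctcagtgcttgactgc
Sprr2d, chr3:92338940-92339139: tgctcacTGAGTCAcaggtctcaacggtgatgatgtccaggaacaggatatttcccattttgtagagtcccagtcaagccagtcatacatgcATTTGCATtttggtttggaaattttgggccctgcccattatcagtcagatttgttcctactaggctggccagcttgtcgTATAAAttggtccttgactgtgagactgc
Sprr2i, chr3:92407791-92407990: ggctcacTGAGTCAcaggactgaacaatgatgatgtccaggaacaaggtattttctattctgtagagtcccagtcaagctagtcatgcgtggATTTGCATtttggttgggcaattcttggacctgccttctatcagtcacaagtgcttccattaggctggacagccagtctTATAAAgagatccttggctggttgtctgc
Sprr2k, chr3:92432382-92432581: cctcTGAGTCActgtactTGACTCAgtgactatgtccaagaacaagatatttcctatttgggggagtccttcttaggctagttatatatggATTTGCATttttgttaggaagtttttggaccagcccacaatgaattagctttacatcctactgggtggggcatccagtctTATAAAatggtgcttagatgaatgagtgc

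In these 4 promoters the TATA box began 29 bases before the start, the octamer 108 or 109 bases before it, and the outermost AP-1 site between 193 and 196 bases before it. Without gaps, the Sprr2d and Sprr2i windows were identical at 159 of 200 bases, and the Sprr2i and Sprr2k windows at 72 of 200. The window listed for Sprr2a3 held none of the 3 motifs. A promoter of 300 bases (250 before and 50 after the start) was found for 58 of the 100 members, which have 66 promoters in all. TATAAA was present in 20 of the 66 (30.3%), against 13.6% of all 32851 promoters in the RefSeq table. TGANTCA was found in 10 (15.2% against 7.81%) and ATTTGCAT in 5 (7.58% against 1.74%). The 4 Sprr2 promoters above, which are related in sequence, count towards each of these 3 motifs and are 4 of the 5 with ATTTGCAT. Overlapping promoters of Acox2 hold the same TGANTCA site, which is therefore counted more than once. The E-box letters CACCTG were present in 25 (37.9% against 20.2%) and the Ets letters GAGGAAGT in 6 (9.09% against 3.20%). Among the other motifs searched on both strands, the glucocorticoid response element ACANNNTGT was in 9.09% of member promoters against 6.85%, the interferon-stimulated element core GAAANNGAA in 6.06% against 8.56%, the NF-kappaB letters GGANTTTCC in 1.52% against 1.25%, the GATA letters AGATAAG in 3.03% against 3.04%, the HNF1 letters GTTAAT in 3.03% against 7.10% and the clock D-box TTATGNAA in 3.03% against 3.38%. These are matches of letters, and binding was not measured.

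Each member was placed in a class by whether W2, W3 or both lay at least 1 on the log2 scale above the larger flank. There were 17 shared peaks, 18 W2-only peaks, 37 W3-only peaks and 28 genes that reached this height at neither timepoint alone. In all genes past the FPKM limit the same shapes were found in 0.137% (shared), 0.314% (W2-only) and 0.490% (W3-only). As the rule used this contrast, nothing is read from the excess. Scores ran from 4.14 to 0.57, with a median of 0.82 against -0.2 over all 12440 genes. The last members inside the limit were Mcpt2 (0.569), Adig (0.566) and Arhgdib (0.565), and the first genes outside it were Pcsk6 (0.559), Apoa2 (0.558) and Gng13 (0.555), so the edge of the set lies within a continuous range.

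**Figure D1:**
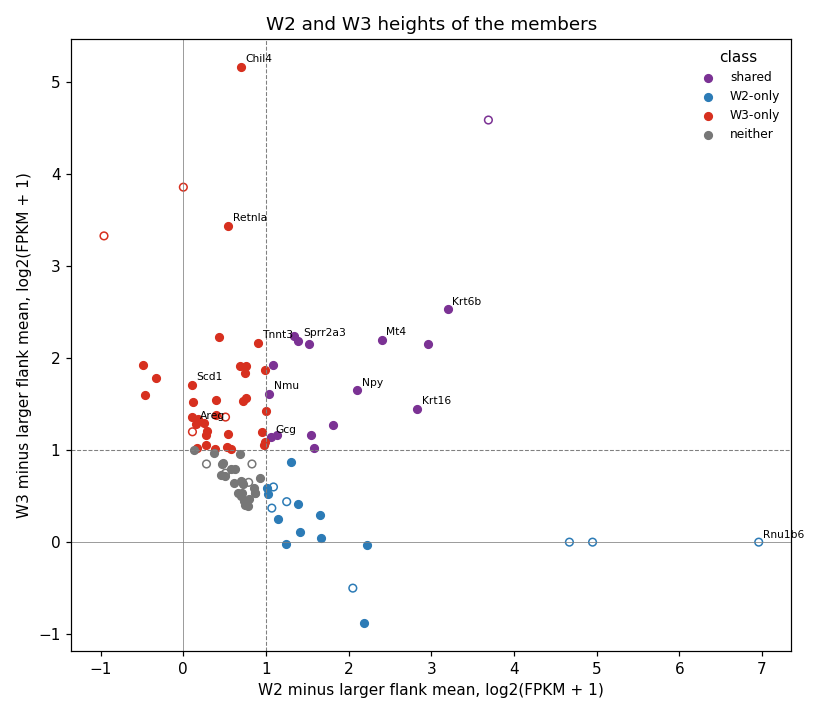
Height of 99 of the 100 members at W2 (x axis) and W3 (y axis) above the larger flank mean, in log2(FPKM + 1). Colours are the 4 classes, dashed lines mark the class limit of 1, and open circles are members with fewer than 20 estimated fragments at both W2 and W3. Chil4 and Retnla stand high at W3 with less than 1 at W2, Krt6b, Mt4 and Krt16 are high at both, and 3 open circles with a W3 difference of 0.0 lie far to the right.

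Of the 100 members, 71 had their highest FPKM of all 15 timepoints at W2 (26) or W3 (45), against 10.9% of all genes. The other members had been higher before birth or at D1 (27), at D3, D5 or W1 (1), or at W6 or W8 (1). In these, W2 and W3 stood above the flanks on average but not above the whole series. The confidence bounds in the files, which cover counting error only, lay above the bounds of every flank timepoint at W2 or W3 in 73 members and in 5.89% of all genes. These contrasts were used by the rule as well. RefSeq entries were found for 95 members, of which 88 were protein coding.

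**Figure D2:**
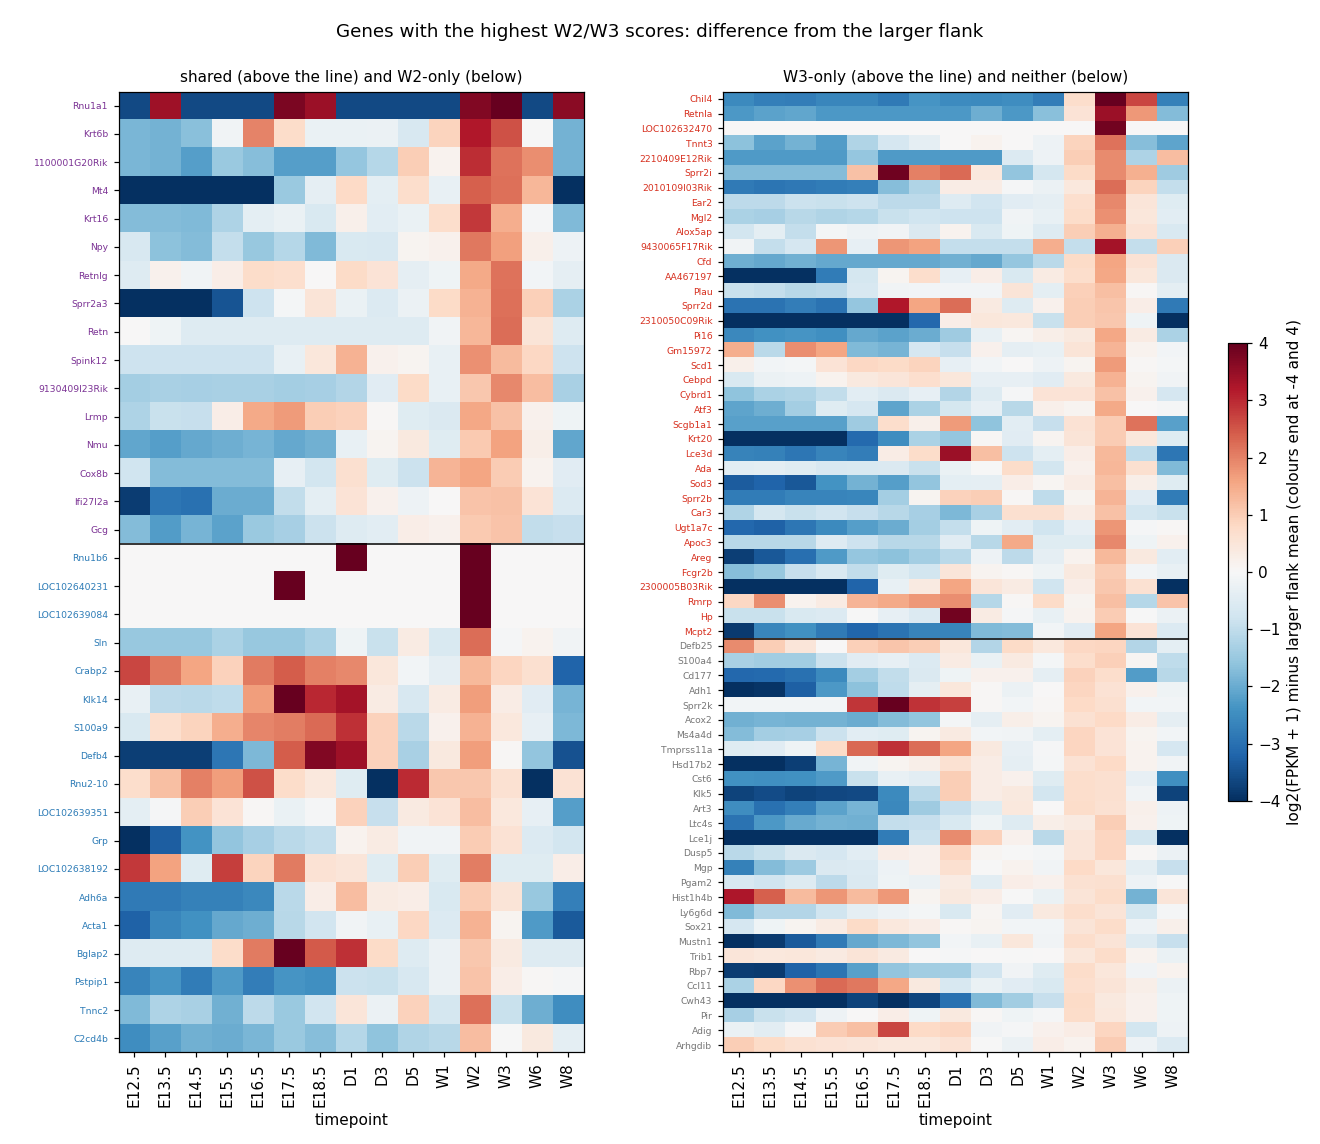
Members (rows, 99 of the 100) at the 15 timepoints (columns), coloured by log2(FPKM + 1) minus the larger flank mean, with red above and blue below it. Rows are ordered by class and then by score, so that the shared, W2-only, W3-only and other members can be compared. Red cells before birth or at D1 are values above the larger flank. They occur in the 27 members that were higher then than at W2 and W3, and also in others such as AA467197.

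Not all leading scores rested on enough fragments. The files give no counts, and fragments were estimated from the confidence bounds on the assumption that they are Poisson. In 16 members this gave fewer than 20 fragments at both W2 and W3, and in 69 at least 100 at one of them. The U1 small nuclear RNA gene Rnu1a1 had the highest score, with an FPKM of 158 at W2 and 296 at W3, but the estimate was 1 fragment at W2 and 2 at W3. The same holds for the U1 gene Rnu1b6 (124 at W2 from 1 fragment, and 0 at D3, D5, W1, W3, W6 and W8). LOC102640231 had 29.8 at W2 from 2 fragments, LOC102639084 had 24.4 at W2 from 1 fragment, and LOC102632470 had 13.49 at W3 from 2 fragments. A very short transcript gains a large FPKM from a single fragment, and the heights of these 5 genes are not distinguishable from the chance presence of 1 or 2 fragments. The U2 gene Rnu2-10 and the RNase MRP RNA gene Rmrp, at 3 fragments or fewer, were no firmer.

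The W8 transcriptome needs mention before the gene groups, as it forms part of the later flank. Squamous markers were almost absent from it. Krt13, a keratin of internal squamous epithelia, was 699 FPKM at W3, 273 at W6 and 5.96 at W8, and the basal keratin Krt5 was 84.6, 27.3 and 1.26. The summed FPKM of 41 squamous keratins and their partners was 3051 at W3, 1329 at W6 and 147 at W8. Of the members, 46 had their lowest value from D3 to W8 at W8, against 26.8% of all genes. As the score subtracts a flank that can include W8, the rule used this contrast and nothing is read from the excess. When W6 alone served as the later flank, 76 of the 100 genes were kept, and 2 members, Sprr2i and Scgb1a1, had a score below 0 (-0.10 and -1.38). Whether W8 lacked forestomach was not tested. The groups of genes below were put together after the values had been seen, and serve to order the description. FPKM values are given without rescaling. For each timepoint, the median-ratio factor is the median over genes of FPKM relative to the gene's geometric mean. It was 0.938 at W1, 0.965 at W2, 0.760 at W3, 0.570 at W6 and 0.678 at W8. Dividing by it would raise W3, W6 and W8 against W2. Small falls after W2 or W3, and a close order of W2 and W3, therefore depend on the scaling.

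Squamous epithelium supplied 15 members, among them keratins of activated or fast-renewing squamous cells. Krt6b was 2.23, 1.43 and 6.07 FPKM at D3, D5 and W1, 34.0 at W2 (bounds 32.2 to 35.8), 21.1 at W3 (19.6 to 22.6), and 2.74 and 0.0325 at W6 and W8. Its partner Krt16 was 1.54, 1.87 and 4.57 before, 23.4 at W2 and 8.42 at W3, and 2.35 and 0 after. Both stood above every flank timepoint at W2 and at W3, and both were higher at W2. Their scores, 2.87 and 2.14, were the same without W8, because the earlier flank was the larger one. Reads of Krt6b may be shared with its near-identical neighbour Krt6a.

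Mt4, a metallothionein of stratified squamous epithelium, had the highest FPKM at W2 among the 25 leading members after Sprr2a3. It was 65.2, 142 and 69.4 FPKM at D3, D5 and W1, 460 at W2 (434 to 485), 402 at W3 (376 to 427), 218 at W6 and 0.301 at W8. W2 and W3 were both above all flanks. Its score of 2.30 became 0.98 with W6 as the only later timepoint.

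The cornified envelope gene Sprr2a3 was 223, 276 and 554 FPKM from D3 to W1, 853 at W2, 1487 at W3, 631 at W6 and 134 at W8. Its W3 value was the highest of all 15 timepoints, and its score was 1.79 with W8 and 0.83 without it. The neighbouring genes whose promoters are shown above behaved differently among themselves. Sprr2b was 6.57 at W2 and 17.1 at W3, Sprr2d 14.49 and 15.7, Sprr2i 4.65 and 11.5, and Sprr2k 0.875 and 0.695. For Sprr2d, Sprr2i and Sprr2k these were second maxima, since E17.5 gave 69.9, 48.2 and 53.0. Sprr2k rested on an estimated 7 fragments at W2 and 5 at W3, and reached the FPKM limit only from E16.5 to D1. Among these neighbours, only Sprr2d had bounds above those of every flank timepoint. The members of the Sprr2 family are similar in sequence, and how reads were divided between them is uncertain.

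Further along the cluster, Lce3d was 7.84 at W2 and 17.3 at W3, against 4.67 at W1 and 2.64 at W6. Lce1j was 31.4 and 41.4, against 10.04 and 13.0. The uncharacterised 2310050C09Rik was 37.1 and 39.6, against 9.48 and 16.4. All 3 were highest at W3 among W1, W2, W3 and W6, and W8 held none of Lce3d and Lce1j and 0.0527 of 2310050C09Rik. At D3, however, Lce1j was 43.3, above its W2 and W3 values, and Lce3d was 16.1, above its W2 value. At D1, Lce1j and Lce3d were higher still, with 86.0 and 78.3. The kallikreins, serine proteases that release cornified cells from one another, differed in time: Klk14 was a W2-only peak (3.64 at W1, 10.8 at W2 and 3.60 at W3), whereas Klk5 was 20.1 at W2 and 19.4 at W3. Cst6, an inhibitor of cathepsins in cornified layers, was 8.86 and 8.43, and the transmembrane protease gene Tmprss11a was 1.88 and 1.29. Each of these genes had been higher earlier. Klk14 was 79.5 and Tmprss11a 10.9 at E17.5, and Klk5 was 24.6 and Cst6 10.8 at D1. Among the 15 squamous members, 8 were higher at W2 and 7 at W3, while 59 of all 100 members were higher at W3. This split is of unscaled FPKM and depends on the scaling, since W2 and W3 lay close for Mt4, Klk5 and Cst6. Of the 15 squamous members, 13 had their lowest value from D3 to W8 at W8, and 13 stayed among the highest 100 without W8. Most squamous genes were not members. Past the FPKM limit, 6 of 36 measured cornified envelope genes and 3 of 33 squamous keratins and partners were members. Over all genes past the limit it was 100 of 12440. The median score of these lists was 0.09 and 0.13, against -0.2 over all genes. Scores above 0 were found in 20 of 36 and 18 of 33 genes, against 23.6% of all genes. The rule used these scores, and nothing is read from the differences.

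Genes of type 2 immunity, the response linked to helminths and allergy, made up 8 members and 7 of them were higher at W3. Chil4, a chitinase-like secreted protein, was 0.337, 0.390 and 0.149 FPKM at D3, D5 and W1, 11.6 at W2 (10.3 to 13.0), 279 at W3 (272 to 286), 49.1 at W6 and 0.205 at W8. Retnla, a resistin-like secreted protein of alternatively activated macrophages, was 0.281, 0 and 0.557 before, 6.18 and 52.7 at W2 and W3, and 15.4 and 0.495 after. W3 exceeded all other timepoints for both genes, W6 came next, and W8 was as low as the first postnatal week. Since the later flank is the mean of a high W6 and a low W8, their scores of 2.94 and 1.99 became 0.25 and 0.26 without W8. Chil4 is close in sequence to Chil3, which was 0.423 at W3.

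Ear2, a ribonuclease of eosinophils and macrophages, was 0.617, 2.28, 6.76, 1.88 and 0.462 FPKM at W1, W2, W3, W6 and W8. The lectin gene Mgl2, expressed by macrophages and dendritic cells, was 1.21, 3.56, 8.79, 2.71 and 1.02 at these timepoints. Both had a clear maximum at W3. Leukotriene synthesis was represented by Alox5ap, the activating protein of 5-lipoxygenase, at 5.59, 17.7, 24.2, 13.1 and 5.20, and by Ltc4s, the leukotriene C4 synthase, at 16.0, 17.8, 27.5, 15.54 and 11.8. Mcpt2, a protease of mucosal mast cells, was 12.1, 9.26, 41.6, 19.7 and 8.60, and was the one W3-only peak of this group that was lower at W2 than at W1. Ccl11, the eosinophil attractant eotaxin, was 5.62 at W1, 14.9 at W2, 10.8 at W6 and 7.53 at W8, and had been higher before birth (47.4 at E15.5).

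Markers of eosinophils, macrophages and mast cells, none of them members, differed among themselves. The eosinophil receptor gene Ccr3 was 0.186 and 0.127 FPKM at W2 and W3 and 0 at the other timepoints from D3 to W8. Siglec5 was 0.0216 at W1, 0.832 at W2, 1.13 at W3, and 0.487 and 0.265 after. Both were higher at W2 and W3 than at any flank timepoint, though at low FPKM. The eosinophil granule gene Epx was 0 at W2 and W3, Prg2 was 0 and 0.0913, and the macrophage receptor gene Csf1r was 19.7 at W1 and 11.0 at W3. The mucosal mast cell protease gene Mcpt1, no member, was 3.46, 2.51 and 25.6 at W1, W2 and W3, while the mast cell genes Cpa3 (3.90, 2.12 and 3.76) and Kit (16.2, 14.4 and 7.96) showed no such maximum. Of the type 2 immunity members, 3 of 8 stayed among the highest 100 genes when W8 was left out.

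**Figure D3:**
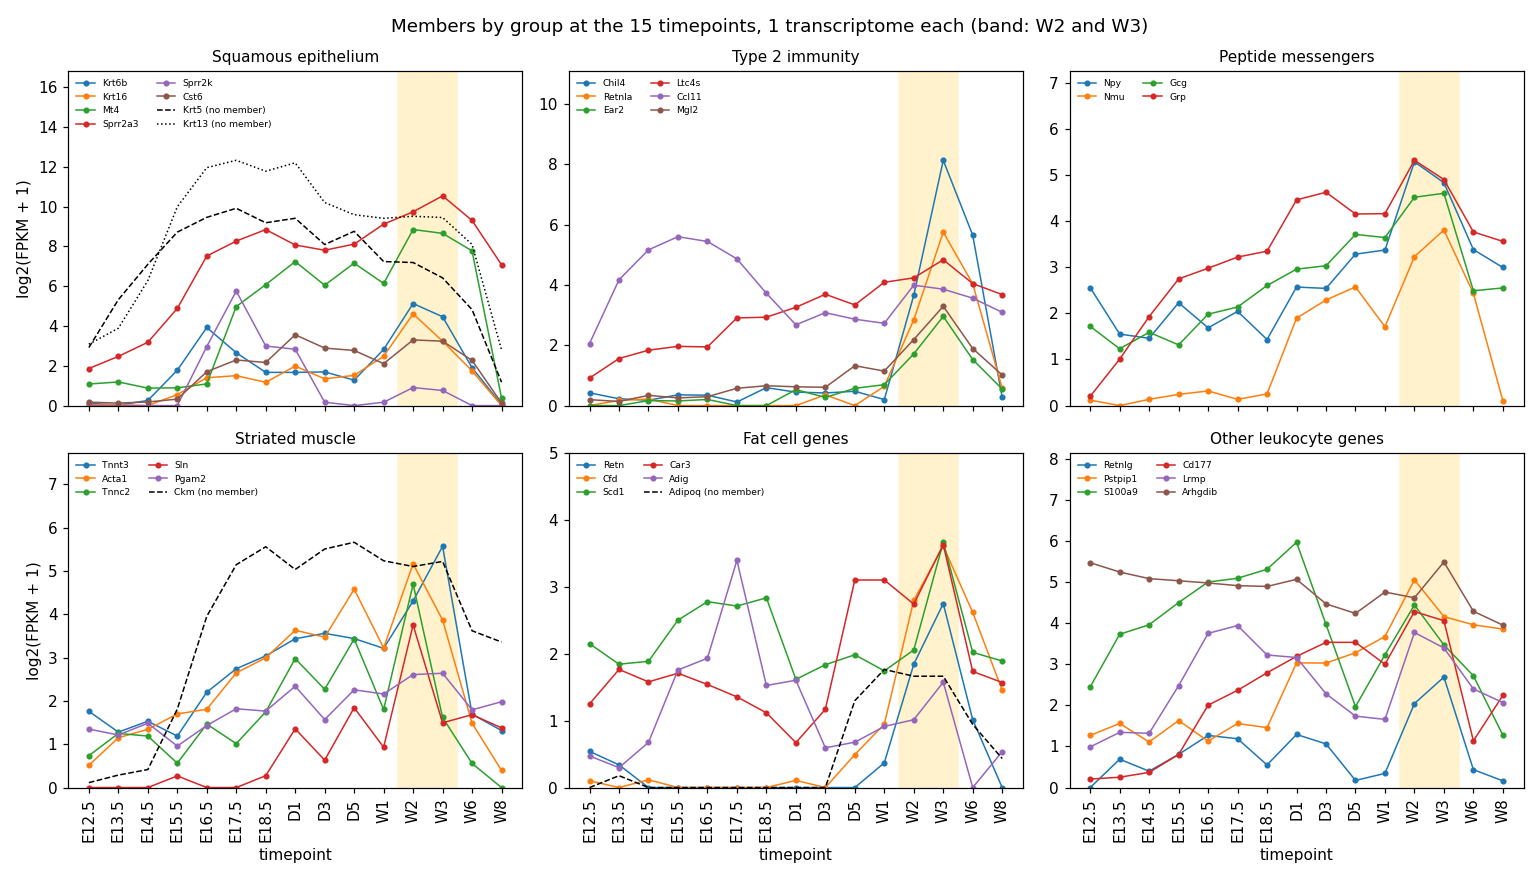
Time courses in log2(FPKM + 1) for members of 6 groups, with 1 transcriptome per timepoint, the band marking W2 and W3 and black broken lines showing marker genes that are no members. Krt5 and Krt13 drop to 1.26 and 5.96 FPKM at W8 together with the squamous members, Chil4 and Retnla reach their maximum at W3, and Ckm stays between 33.4 and 36.7 FPKM from W1 to W3 while Tnnc2 and Sln peak at W2.

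Other leukocyte genes made up 10 members, and all 10 stayed among the highest 100 without W8. Retnlg, a resistin-like protein of neutrophils, was 1.09, 0.128 and 0.270 FPKM from D3 to W1, 3.13 at W2, 5.45 at W3, and 0.353 and 0.1204 after. S100a9, a calcium-binding protein of neutrophils, was 20.8 at W2 and 10.1 at W3 against 8.40 at W1 and 5.60 at W6. At D3 it was 14.7, above its W3 value, and at D1 it was 61.8, above both. Its partner S100a8 was 6.14 and 0.781. Cd177, a neutrophil surface protein also found in gut epithelium, was 15.7 at W3 against 7.01 at W1 and 1.20 at W6, and was higher still at W2. Among the other neutrophil markers, Ly6g was 0 at every timepoint from D1 to W8, and the granule genes Camp and Ngp were 0 at W2 and W3. The granule genes Ltf and Mmp8 were detected there, with 4.82 and 2.60 for Ltf (6.29 at W1) and 0.0427 and 0.0241 for Mmp8.

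Lrmp, a membrane protein of lymphocytes, also stood in the fixed list of tuft cells, the chemosensory epithelial cells. Lrmp was 2.16, 12.7, 9.55, 4.28 and 3.20 FPKM from W1 to W8, and was a shared peak. Of the other tuft cell genes, Gnat3, the taste G protein gustducin, was 0.102, 3.13, 3.06, 0.893 and 0.699, and Dclk1 was 1.91, 4.09, 3.26, 1.80 and 1.20. Gnat3 stayed under the FPKM limit and Dclk1 under the score limit, so neither is a member. Trpm5, the tuft cell cation channel, was 1.90, 3.47, 2.49, 2.33 and 1.82, and the median score of the 6 tuft cell genes past the FPKM limit was 0.20. Among remaining leukocyte members, Pstpip1, a cytoskeletal adaptor, was highest at W2 (32.3 against 11.8 at W1 and 14.6 at W6), Fcgr2b, the inhibitory IgG receptor, was highest at W3 (6.80 against 2.43 and 2.57), and Arhgdib, abundant in blood cells, was highest of D3 to W8 at W3 (44.0 against 26.1 and 18.6).

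Among the members were 4 peptide messengers, and all 4 were kept without W8. Npy, the neuropeptide Y of enteric and sympathetic neurons, was 4.82, 8.74 and 9.36 FPKM from D3 to W1, 38.0 at W2 (32.9 to 43.0), 27.5 at W3 (23.0 to 32.0), and 9.43 and 6.97 after. Nmu, which encodes the peptide neuromedin U, was 3.89, 4.95 and 2.27 before, 8.38 and 13.0 at W2 and W3, and 4.40 and 0.0760 after. Unlike Npy, Gcg and Grp, it was almost absent at W8, as the squamous markers were. Which cells held the Nmu RNA was not tested. Gcg, which encodes proglucagon, was 7.18, 12.1 and 11.5 before, 21.9 and 23.3 at W2 and W3, and 4.62 and 4.86 after. Grp, the gastrin-releasing peptide, was 23.7, 16.8 and 16.9 before, 38.9 and 28.9 at W2 and W3, and 12.6 and 10.8 after. For each of the 4 genes W2 and W3 were both above every flank. No member came from the list of gastric endocrine genes. Ghrl, encoding ghrelin, was 720 at W1, 2820 at W2, 2565 at W3, 2116 at W6 and 2436 at W8, a level at W6 and W8 that was not below 2116.

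Striated muscle genes made up 7 members, with 5 higher at W2 and all 7 kept without W8. The skeletal alpha-actin gene Acta1 was 10.1, 22.9 and 8.34 FPKM from D3 to W1, 34.9 and 13.6 at W2 and W3, and 1.80 and 0.315 after. The fast troponin C gene Tnnc2 was 3.82, 9.78 and 2.49, then 24.9 and 2.07, then 0.472 and 0. Sln, the sarcolipin that inhibits the calcium pump, was 12.47 at W2 and 1.82 at W3. Tnnt3, a fast troponin T, had the opposite order with 18.8 at W2 and 46.5 at W3. So Tnnc2 and Sln were at W3 within or below the range of D3 to W1, whereas Tnnt3 was at its maximum there. Other skeletal muscle genes went in part the same way: Myl1 was 3.50 at W1, 14.47 at W2 and 1.21 at W3, Mylpf 7.94, 24.3 and 6.55, and the creatine kinase gene Ckm 36.7, 33.4 and 36.3. The summed FPKM of 20 skeletal muscle genes was 95.2 at W1, 218 at W2, 155 at W3, 44.0 at W6 and 52.2 at W8. The muscle of the stomach wall is smooth, and the part of skeletal muscle tissue in these values was not tested.

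All 5 members known from fat cells were higher at W3 than at W2 and were kept without W8. Retn, the adipocyte hormone resistin, was 0 at D3 and D5 and 0.292 FPKM at W1, 2.59 at W2, 5.73 at W3, 1.02 at W6 and 0 at W8. Cfd, the complement factor adipsin, was 0.929, 5.96, 11.2, 5.14 and 1.74 from W1 to W8. Scd1, a fatty acid desaturase, was 2.35, 3.16, 11.7, 3.06 and 2.71, and Car3, a carbonic anhydrase, was 7.59, 5.69, 11.4, 2.33 and 1.97. All 4 had their maximum at W3. Adiponectin (Adipoq) was 2.40, 2.17 and 2.17 at W1, W2 and W3, and the fatty acid binding protein gene Fabp4 was 298, 175 and 168, so these fat cell markers did not have the W3 maximum.

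Enzymes of alcohol, steroid and xenobiotic metabolism included Ugt1a7c, a glucuronosyltransferase that conjugates compounds from food. It was 13.6, 11.3 and 8.48 FPKM from D3 to W1, 12.2 at W2, 55.6 at W3, and 15.0 and 16.0 after. Its maximum was thus confined to W3 among D3 to W8. The retinol and alcohol dehydrogenase gene Adh1 was 108 and 89.6 at W2 and W3 against 60.4 at W1 and 66.9 at W6. Its fall to W6 depends on the scaling, as the median-ratio factor was 0.965 at W2 and 0.570 at W6. Its neighbour Adh6a was 13.4 and 9.18 against 3.66 and 1.51, and Cybrd1, a ferric reductase of iron uptake, was 36.2 and 56.7 against 36.4 and 27.7. In the fixed list of detoxification genes, 2 of 29 past the FPKM limit were members.

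Growth factor and response genes gave 6 members, all higher at W3 than at W2. Areg, the EGF receptor ligand amphiregulin, was 9.98, 14.7, 33.7, 17.8 and 9.70 FPKM from W1 to W8. Plau, the urokinase, was 5.80, 16.3, 19.5, 8.31 and 5.79. The stress transcription factor gene Atf3 was 8.56, 7.99, 22.7, 7.45 and 7.10, and Cebpd, a transcription factor gene induced by glucocorticoids and inflammation, was 6.72, 12.8, 26.5, 10.51 and 8.67. Atf3 at W2 did not exceed W1, while Plau and Cebpd were above W1 and W6 at both. The immediate early and stress list held 1 member among 20 genes past the limit, with a median score of 0.14.

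Genes outside these groups included Krt20, a keratin of the gastric surface epithelium, at 96.8, 129, 183, 124 and 64.1 FPKM from W1 to W8, and AA467197, at 101, 131, 232, 110 and 53.3. Ifi27l2a, an interferon-induced gene, was 63.6, 138, 141, 91.4 and 42.9, and Mgp, the matrix Gla protein that inhibits calcification, was 240, 458, 363, 201 and 138. Hp (haptoglobin), a liver product, was 4.60 at W3. Apoc3, an apolipoprotein from the fixed list of intestinal enterocyte genes, was 7.25 at W3. It was 0.575 at D1, 5.21 at D5 and 0.541 at W2. Albumin (Alb), no member, was 1.81 at W2, 65.4 at W3 and 0.869 at W6, and at D1, where Hp was 38.9, it was 461. The part of liver RNA in these values was not tested. No member came from the fixed lists of parietal, chief and mucous cells, smooth muscle, extracellular matrix or cell division.

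The 8 transcriptomes from E12.5 to D1 took no part in the score, and they allowed a test. They did take part in the FPKM limit of 5, which 8 members reached at these timepoints alone. The mean of the 4 timepoints from E16.5 to D1 was compared with that of the 4 from E12.5 to E15.5 by limma on log2(FPKM + 1) over 16292 genes with an FPKM of at least 1 at any of the 8, with Benjamini-Hochberg adjustment and timepoints as replicates. The spread within each side therefore includes change over time, and the number of embryos combined also differed between the sides. Of the 100 members, 52 were higher on the later side at an adjusted p under 0.05, 2 were lower, 34 passed in neither direction, and 12 did not reach the FPKM limit and were not tested. Of all genes tested, 17.7% were higher and 32.3% lower, which median-ratio scaling turned into 23.9% and 22.9% with 52 members higher. The median difference was 1.16 over the 88 tested members and -0.16 over all genes, and with median-ratio scaling it was 1.19 and -0.01. A member that reached the limit on the later side alone had to differ in that direction. Apart from these 27, 36 of 61 members with an FPKM of at least 1 from E12.5 to E15.5 were higher (59.0%), against 15.6% of the 15207 such genes. Among the 92 members that reached an FPKM of 5 from D3 to W8, an alternative chosen after seeing the data, 80 were tested, 48 were higher and 2 were lower, against 21.7% higher and 30.3% lower of all 10955 such genes. With both limits together, 33 of 55 members were higher (60.0%), against 20.4% of 10669 genes.

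Members of 1 family or cell type are not independent of each other. By class, 9 of 14 tested shared members, 8 of 17 W2-only, 17 of 29 W3-only and 18 of 28 others were higher. Squamous members were higher in 12 of 15 cases, where the fixed list of cornified envelope genes as a whole gave 36 of 37. Of the leukocyte members 7 of 10 were higher, and of type 2 immunity 1 of 4 tested. Metabolic enzymes gave 5 of 6, growth factor and response genes 4 of 6, striated muscle 4 of 7 and peptide messengers 2 of 4. Fat cell genes gave 1 of 3, liver products 0 of 1, and RNA genes and unplaced gene models 0 of 9. Over all genes tested the share was 17.7%. The groups are small, and differences between them were not tested.

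**Figure D4:**
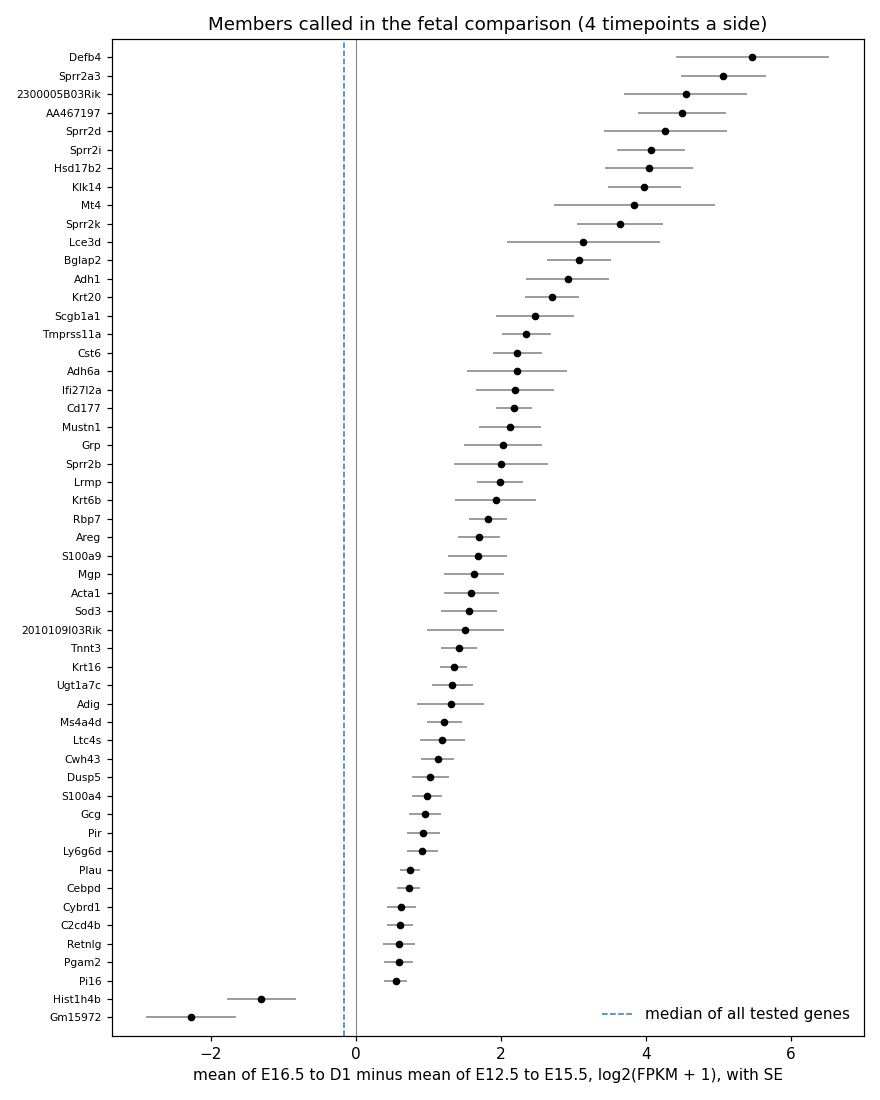
Difference between the mean of E16.5 to D1 and that of E12.5 to E15.5 in log2(FPKM + 1), with its SE from limma, for 53 of the 54 members called at an adjusted p under 0.05 (4 timepoints on each side). The higher members plotted extend from Pi16 (0.55) to Defb4 (5.47), the 2 lower ones are Hist1h4b (-1.30) and Gm15972 (-2.27), and the dashed line is the median of all tested genes.

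Sprr2a3 was 2.64, 4.55, 8.07 and 28.5 FPKM from E12.5 to E15.5 and 182, 307, 459 and 268 from E16.5 to D1, a difference of 5.07 ± 0.59 (SE, limma adjusted p = 0.00137). The groups did not overlap. Defb4, a beta-defensin of squamous surfaces, was 0, 0, 0 and 0.827, then 2.93, 71.0, 175 and 140 (5.47 ± 1.06, limma adjusted p = 0.00542). It was also a W2-only peak, at 41.8 against 16.7 at W1 and 13.0 at W3. Hsd17b2, which inactivates estradiol and testosterone, was 0.0518, 0.741, 1.85 and 9.72, then 34.6, 40.9, 45.1 and 58.2 (4.04 ± 0.61, limma adjusted p = 0.00276). In these 3 genes every later value exceeded every earlier one, as it did in 46 members and 17.2% of all genes tested. For a single gene with 4 values a side, an exact two-sided permutation test cannot go below p = 0.0286, which all 3 reached.

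Krt16 was 0.0364, 0.0326, 0 and 0.470 FPKM early and 1.64, 1.84, 1.25 and 2.96 late (1.35 ± 0.19, limma adjusted p = 0.00245), and its later fetal values stayed below the 23.4 of W2. Krt6b was 0.0839, 0.0215, 0.195 and 2.43, then 14.2, 5.31, 2.18 and 2.18. These groups overlapped, and the difference was 1.93 ± 0.56 (limma adjusted p = 0.0214). Gcg was 2.29, 1.35, 2.01 and 1.49, then 2.95, 3.40, 5.08 and 6.77 (0.96 ± 0.22, limma adjusted p = 0.00933). Tnnt3 was 2.39, 1.43, 1.89 and 1.28, then 3.60, 5.70, 7.22 and 9.83 (1.42 ± 0.25, limma adjusted p = 0.00421). Both Gcg and Tnnt3 were higher at every later timepoint than at any earlier one.

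Other members did not pass the test or were hardly present in the fetus. Npy was 4.89, 1.93, 1.75 and 3.69 FPKM early and 2.22, 3.12, 1.70 and 4.94 late (-0.02 ± 0.31, limma adjusted p = 0.968). Nmu was at most 0.247 through E18.5 and 2.72 at D1 (0.53 ± 0.35, limma adjusted p = 0.237). Chil4, Retnla, Ear2, Mgl2, Retn and Cfd remained under an FPKM of 1 at all 8 timepoints and were not tested. They reached an FPKM of 1 only after birth. Ccl11 went up and down within the fetal series, with 3.16, 16.97, 34.8 and 47.4 early and 42.4, 28.1, 12.2 and 5.40 late (-0.07 ± 0.83, limma adjusted p = 0.948), a course that the comparison of means does not describe. The 2 lower members were the histone gene Hist1h4b (41.9, 22.8, 9.82 and 14.3, then 9.78, 13.98, 3.86 and 4.90) and the lncRNA Gm15972 (12.7, 1.34, 16.9 and 13.8, then 0.465, 0.365, 2.08 and 1.59), with limma adjusted p of 0.0490 and 0.0168.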

How the data were processed

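The authors deposited 1 table per timepoint with FPKM values for each gene entry, each with a lower and an upper bound of confidence. By the paper's methods, reads were filtered with FastQC, mapped to GRCm38.p2 with HISAT2 and quantified with StringTie and a GENCODE annotation, whereas the submitters' processing notes name Bowtie 0.12.2 and FastQC, and the files have the layout of Cufflinks gene tables with RefSeq-style names. The RNA methods of the paper name liver, and the labels name stomach. Libraries were made from bead-selected mRNA.

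Entries with the same symbol were summed, and values were analysed as log2(FPKM + 1), which understates differences of genes with low FPKM. Depth is not stated in the files. If the bounds are Poisson, 10600000 to 17000000 fragments lay behind a table, but only 48.1% of fragment numbers under 30 came within 0.1 of a whole number, so these are estimates. The sum of FPKM ran from 745538 (E14.5) to 1344957 (W6), and all values are relative within a transcriptome. Bounds cover counting error only. Start positions were counted from 1.

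The members and gene lists were chosen with earlier results of these data known. Named genes were the 25 highest scores, the 10 highest of each class, members in lists with at least 2 members, clusters of at least 3 members within 1 Mb, members called in the fetal test, the 3 genes on either side of the limit, and markers on which a result turns. A selection of these is given. The fetal comparison used limma 3.58.1 in R 4.3.3. It was tested on simulated data of 16292 genes, where 64 of 100 genes shifted by 1 and 92 of 100 shifted by 2 on the log2 scale were called, with 9 unchanged genes. The other steps used Python 3.11.15, pandas 2.3.3 and NumPy 2.4.6. Motifs were searched in RefSeq promoters of GRCm38.p6. Alternatives were other pseudocounts, FPKM limits, scalings, class limits, fetal windows, the first entry of a symbol, a minimum of 20 fragments, and leaving out each timepoint. The minimum of fragments, the classes without W8, and the FPKM limit reached from D3 to W8 were chosen after seeing the data. Values of 1 member are not reported here, and it is left out of the plots, but it stays in the counts.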

Additional observations from a re-analysis of the deposited data

Results flagged for a closer look

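Among the 54 members called in the fetal comparison, each window of 4 timepoints was checked for a value far from the other 3 on the log2 scale (Dixon's test at 95%), and 13 of 108 windows had one. Chance alone gives about 1 in 20, and the windows also contain change over time. In the early window, E15.5 stood above the other 3 timepoints for Krt6b (2.43 FPKM), Krt16 (0.470), Defb4 (0.827), S100a4 (7.82), Sod3 (1.25) and Bglap2 (1.42). E14.5 stood above for Sprr2d (0.132) and 2300005B03Rik (0.432), and E12.5 for Klk14 (2.01). Gm15972 was far below at E13.5 (1.34 against 12.7 to 16.9). In the later window, Sprr2k was far above at E17.5 (53.0 against 6.13 to 6.96), Plau below at E16.5 (4.72) and Retnlg below at E18.5 (0.465).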

How the results depend on the processing

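No paired analysis was possible because each timepoint has 1 transcriptome. Of the 100 members, 80 to 97 were kept with a pseudocount of 0.1 (87) or 5 (80), a limit of 10 (82), the first entry of each symbol (97) or at least 20 fragments (83), 68 with median-ratio scaling and with quantile normalization, and 66 with a limit of 1. Leaving out 1 timepoint kept 52 (without W3) to 86 (without W1), with 62 without W2. The score of Sprr2i became -0.10 without W8 and 1.95 without W6. All 100 scores stayed above 0 under both scalings and other pseudocounts. Leaving out 1 timepoint turned some below 0, namely Sln, LOC102638192, Tnnc2 and C2cd4b without W2 (lowest -0.88), 9430065F17Rik, Ugt1a7c, Apoc3 and Mcpt2 without W3 (-0.96), Rnu2-10 without D3 (-1.18), Rmrp without W6 (-0.48), and Sprr2i and Scgb1a1 without W8 (-1.38). Class sizes depended on the setting. Shared, W2-only, W3-only and neither came to 4, 8, 9 and 79 with a difference of 2. A difference of 1 between W2 and W3 themselves gave 69 with no such difference, 11 higher at W2 and 20 at W3. The pseudocount of 0.1 gave 34 shared, and that of 5 gave 7 shared, 19 W3-only and 62 neither. Without W8 there were 7 shared and 44 neither, and 11 W2-only members had at least 20 fragments. In the fetal comparison, members called higher numbered 40 (without E12.5) to 55 (E12.5 to E14.5 against E17.5 to D1), and leaving out 1 timepoint gave 40 to 52. Lower members numbered 1 to 3 without single timepoints, 1 with other pseudocounts, no limit or other scalings, and 0 with the narrower windows. Genes lower over the whole table numbered 3407 without E13.5 against 5256, and 3407 to 5876 over single omissions. Of 801 alternative fits of single members, 707 kept their call, 94 lost it and none reversed. W2 and W3 are 1 transcriptome each, so differences between animals cannot be separated from differences between ages.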

Other observations

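Members without a group included several genes with a large W3 value. 2010109I03Rik was 5.41 FPKM at W1, 9.15 at W2, 34.2 at W3, 12.9 at W6 and 2.86 at W8, and Pi16, a peptidase inhibitor of fibroblasts, was 6.26, 7.21, 17.2, 6.85 and 1.60. Ada, the adenosine deaminase, was 2.91, 6.27, 15.3, 9.02 and 0.889, and Sod3, the extracellular superoxide dismutase, was 11.3, 13.3, 26.0, 12.9 and 7.33. C2cd4b had its maximum at W2 instead (3.63, 22.6, 8.85, 12.2 and 6.58), as did Cwh43 (15.45, 53.1, 40.2, 34.6 and 26.8). In the last 2 genes W6 and W8 stayed above W1.

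Gnat3 had a score of 1.19 and Alox5, the 5-lipoxygenase that needs the product of Alox5ap, one of 0.97, within the range of the members, but their FPKM stayed under 5. Both were chosen for mention after their values were seen. Alox5 was 0.761, 3.52, 4.59, 2.13 and 1.10 FPKM from W1 to W8.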
